A study of Mus musculus with 4 samples.

Results

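The imprinted regions on chromosomes 2 and 6 were those of 7 genes or transcripts, Mcts2, Nnat, Gnas and Nespas on chromosome 2 and Peg10, Mest and Nap1l5 on chromosome 6. They were chosen by position: a probe of the CpG island array belonged to them if it lay inside a window placed around the island of each gene in the mm9 build. The windows held 84 of the 88737 probes of the array, and a gap of over 1000 bp between probes split them into 8 regions of 13091 such regions on the autosomes. Each array compared methylated DNA, precipitated with an antibody against 5-methylcytosine and labelled with Cy5, with input DNA labelled with Cy3. The DNA came from whole brains of C57BL/6J mouse offspring at 1 day of age. Dams of the Sham group had received vehicle into the trachea, and dams of the TiO2-H group 100 ug of titanium dioxide nanoparticles in 25 uL. The treatment protocol gave gestational day 10.5 for the administration, whereas the sample names gave day 14. DNA of 2 offspring from each of 5 dams (Sham) or 6 dams (TiO2-H) was pooled for each sex, so that each of the 4 groups (Sham male, TiO2-H male, Sham female and TiO2-H female) was 1 pool on 1 array. There were no replicates and no dye swap, and a difference between arrays has no replicate error.

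Imprinted genes are expressed from the copy of only one parent. The difference between the copies is kept by methylation that the egg or the sperm laid down on a control region, so that in most cells only the copy of one parent is methylated there, and this methylation survives the erasure after fertilization and stays in nearly all tissues, brain included. At Mest, Nnat, Peg10, Mcts2, Nap1l5, Nespas with Gnasxl, and exon 1A of the Gnas locus the methylated copy is the maternal one. At Nesp it is the paternal copy, with no statement here on when that methylation was laid down. The promoter of Gnas itself lies close to exon 1A and is free of methylation on both copies. The array measured both copies and all brain cells together, so the parental copies, and the share of methylated cells against the methylation in each cell, cannot be told apart here.

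The promoters below show what kind of sequence the regions hold, and include methylated imprinted promoters and the unmethylated Gnas promoter. They are RefSeq sequences of the GRCm38.p6 build, 5′ to 3′ on the strand of the gene, from 250 bases before to 50 bases after an annotated start. The probe positions below are in mm9, so the coordinates of the builds must not be set side by side. Capitals mark the 6 letters TGCCGC or, on the other strand, GCGGCA, the hexamer known to be bound by ZFP57, a zinc finger protein that protects imprinted methylation.
Mest, chr6:30737800-30738099, plus strand: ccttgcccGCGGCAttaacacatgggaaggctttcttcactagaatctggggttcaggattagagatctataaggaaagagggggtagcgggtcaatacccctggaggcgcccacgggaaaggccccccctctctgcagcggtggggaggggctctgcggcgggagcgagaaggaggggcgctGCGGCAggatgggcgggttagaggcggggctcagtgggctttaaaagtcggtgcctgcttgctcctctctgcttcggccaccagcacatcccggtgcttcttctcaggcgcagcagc
Nnat, chr2:157559828-157560127, plus strand: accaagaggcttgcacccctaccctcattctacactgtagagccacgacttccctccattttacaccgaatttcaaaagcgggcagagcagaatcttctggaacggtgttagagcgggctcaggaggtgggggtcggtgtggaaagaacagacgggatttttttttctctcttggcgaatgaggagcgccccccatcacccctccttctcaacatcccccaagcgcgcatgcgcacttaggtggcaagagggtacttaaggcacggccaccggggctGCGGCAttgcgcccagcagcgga
Gnas exon 1A, chr2:174327499-174327798, plus strand: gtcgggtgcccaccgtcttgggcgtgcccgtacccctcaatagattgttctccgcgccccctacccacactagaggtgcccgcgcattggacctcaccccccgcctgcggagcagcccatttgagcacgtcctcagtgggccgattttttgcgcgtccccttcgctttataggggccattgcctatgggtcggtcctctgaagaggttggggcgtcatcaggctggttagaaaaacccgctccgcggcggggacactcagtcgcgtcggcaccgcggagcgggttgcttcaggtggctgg
Gnas, chr2:174329756-174330055, plus strand: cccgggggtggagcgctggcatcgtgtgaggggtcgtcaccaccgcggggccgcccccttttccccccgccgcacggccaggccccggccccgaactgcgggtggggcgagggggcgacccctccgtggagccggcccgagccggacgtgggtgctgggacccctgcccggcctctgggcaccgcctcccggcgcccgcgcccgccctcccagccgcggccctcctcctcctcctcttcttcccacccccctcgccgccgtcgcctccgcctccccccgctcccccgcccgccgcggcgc

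The Mest promoter held 17 CpG and 2 matches of the hexamer, and the Nnat promoter 17 CpG and 1 match. The promoter at exon 1A held 27 CpG and that of Gnas 40 CpG, the most of the promoters examined, and neither held a match. Among the members not printed, Nap1l5 held 2 matches and Mcts2 held 1, and the upstream start of Mest and the Nesp start of Gnas held none. Of 32851 promoters of 300 bases, 11.6% held at least 1 match and 1.53% at least 2. Among the 14281 promoters with 10 or more CpG these shares were 22.5% and 3.36%. A promoter sequence was available for 5 of the 7 members, with no entry for Peg10 or Nespas. A match is a run of letters and not a bound site, and its absence says only that these letters are not within the window.

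The level of a probe was its log2 ratio of Cy5 over Cy3 minus the median of that ratio over the autosomal probes of the same array, so a level of 0 is that of a typical autosomal CpG island probe. This ratio rises with the density of methylated CpG and is not a percentage of methylation. The scanning software marked which signals were well above background, and a signal not so marked is called dim. The Cy3 input of X-linked probes, relative to autosomal probes, was -0.75 on the log2 scale in Sham male, 0.03 in Sham female, 0.03 under the label TiO2-H male, and -0.74 under TiO2-H female. The X-linked input of the TiO2-H arrays therefore went against their sex labels, and TiO2-H male and TiO2-H female mean below the arrays so labelled. Where 4 values are given in a row, they are in the order Sham male, Sham female, labelled TiO2-H male, labelled TiO2-H female. The arrays labelled male shared one slide and those labelled female another, and the Sham arrays sat at one position of a slide and the TiO2-H arrays at the other. Slide cannot be told apart from the sex label, and position cannot be told apart from exposure. Cy5 was well above background for 51.2%, 58.8%, 24.6% and 32.9% of the autosomal probes in that order. The median absolute deviation of the autosomal levels was 1.08, 0.60, 0.91 and 1.04.

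Most probes of the imprinted regions were above the typical CpG island on every array. The level was above the autosomal median for 65 of the 84 probes in Sham male, 75 in Sham female, 68 in TiO2-H male and 72 in TiO2-H female. On all 4 arrays together it was above the median for 55 probes (65.5%), compared with 34.1% of the autosomal probes. Cy5 was well above background on all 4 arrays for 34 member probes (40.5%), against 24.0% of the autosomal probes, and on no array for 20. No member probe was saturated or carried an outlier flag. The median level of 4 of the 8 regions lay above the 75th percentile of the autosomal regions on all 4 arrays, as did that of 1793 of the 13091 autosomal regions (13.7%).

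**Figure D1:**
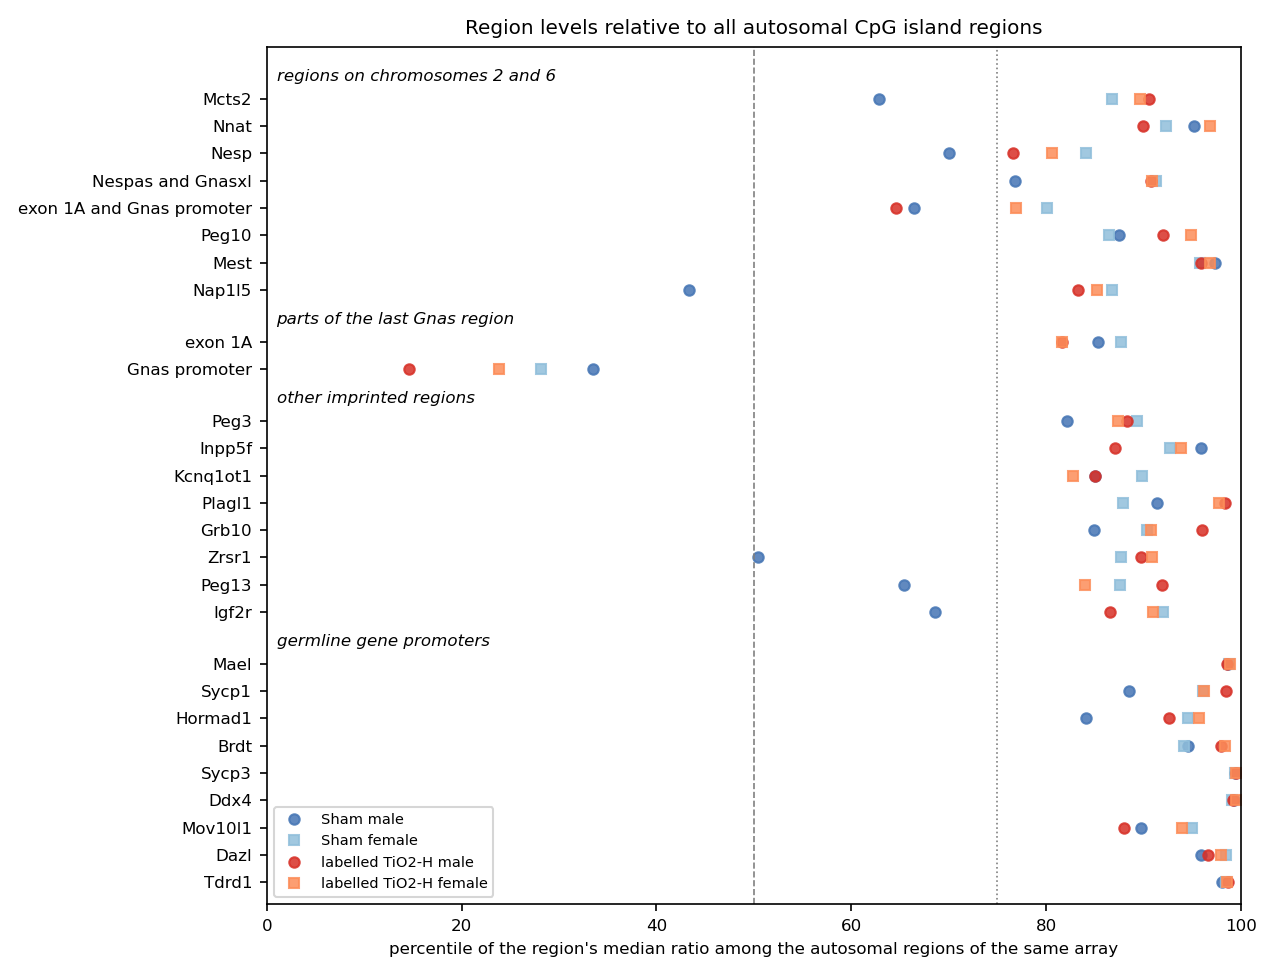
Percentile of the median level of each region among the 13091 autosomal regions of the same array (x axis, %), with 1 point per array, for the 8 regions, for exon 1A and the Gnas promoter taken apart, and for the comparison lists. The dashed line marks the 50th and the dotted line the 75th percentile. Mest lay between 95.8 and 97.3 on all arrays, the Gnas promoter between 14.6 and 33.4, and Nap1l5 at 43.3 in Sham male against 83.3 to 86.7 on the other arrays.

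Mest, which encodes a protein of the alpha/beta hydrolase fold, had the highest mean percentile of the 8 regions. Its 6 probes spanned chr6:30688012-30688541 at the CpG island promoter, and Cy5 was well above background for all 6 on all 4 arrays, which held for no other region. The median level was 1.90, 1.44, 1.49 and 1.89, or percentiles 97.3, 95.8, 95.9 and 96.8, with Nnat marginally above it in TiO2-H female (96.9). With normexp background correction the Mest percentiles were 75.8, 96.9, 30.7 and 48.8. The medians of the arrays differed by 0.47 at most, less than the SD of 1.25 over the 6 probes in Sham male. The highest probe by the mean of the arrays, at 30688404, measured 2.91, 2.03, 1.69 and 2.81 in the same order of arrays. The lowest, at 30688482, measured 0.05, 1.56, 0.29 and 1.20, so that its levels split by sex label and slide rather than by exposure.

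Nnat encodes neuronatin, a small membrane protein of developing brain, and its promoter sits inside an intron of Blcap. The 7 probes spanned chr2:157385700-157386395. Their median level was 1.61 in Sham male, 1.11 in Sham female, 1.06 in TiO2-H male and 1.90 in TiO2-H female, with percentiles of 95.1, 92.4, 90.0 and 96.9. With normexp these were 96.1, 96.2, 40.7 and 56.8. The probe at 157386103 was the highest of the region, with 4.69, 2.56, 1.89 and 3.83. The lowest, at 157385783, measured 0.64, 0.72, 0.04 and 0.74. TiO2-H male was thus the lowest array for both probes, while Sham male was the highest for the first and TiO2-H female for the second.

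Peg10 is a gene derived from a retrotransposon that is needed for the placenta. Its 7 probes spanned chr6:4697308-4698444, and the median level was 1.11 in Sham male, 0.71 in Sham female, 1.17 in TiO2-H male and 1.67 in TiO2-H female. The percentiles of these medians were 87.5, 86.4, 92.0 and 94.9, both TiO2-H arrays above both Sham arrays. With normexp they were 89.8, 53.7, 90.6 and 90.0. The highest probe, at 4697572, gave 2.39, 1.61, 2.53 and 1.93, but neither dye was well above background there on any array, so this is a ratio of dim signals. The lowest, at 4698392, measured -0.86, 0.47, -0.18 and 0.32, and its Cy5 was not well above background on any array.

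Mcts2 is a retrogene, an intronless copy of Mcts1 that lies within H13. Its 5 probes spanned chr2:152512463-152513054 and had a median level of 0.26 in Sham male, 0.72 in Sham female, 1.09 in TiO2-H male and 1.28 in TiO2-H female, or percentiles 62.8, 86.7, 90.6 and 89.7. With normexp the TiO2-H female value was 42.6. The highest probe, at 152512595, differed little between arrays, with 1.43, 1.40, 1.29 and 1.85. The lowest, at 152513000, measured 0.08, 0.56, -0.43 and 0.31. Nap1l5, also a retrogene and related to nucleosome assembly proteins, lies within Herc3, and its 5 probes spanned chr6:58856617-58857246. The median level was -0.17 in Sham male, 0.72 in Sham female, 0.74 in TiO2-H male and 1.01 in TiO2-H female, with percentiles of 43.3, 86.7, 83.3 and 85.2. In Sham male the percentile was 74.8 with loess and 23.1 with normexp, and in the TiO2-H arrays it was 51.1 and 39.9 with normexp. Its highest probe, at 58856617, measured 0.70, 1.02, 1.19 and 1.34, and its lowest, at 58856764, -0.62, 0.72, 0.14 and 0.68. By the median, Sham male was the lowest array for both retrogenes.

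**Figure D2:**
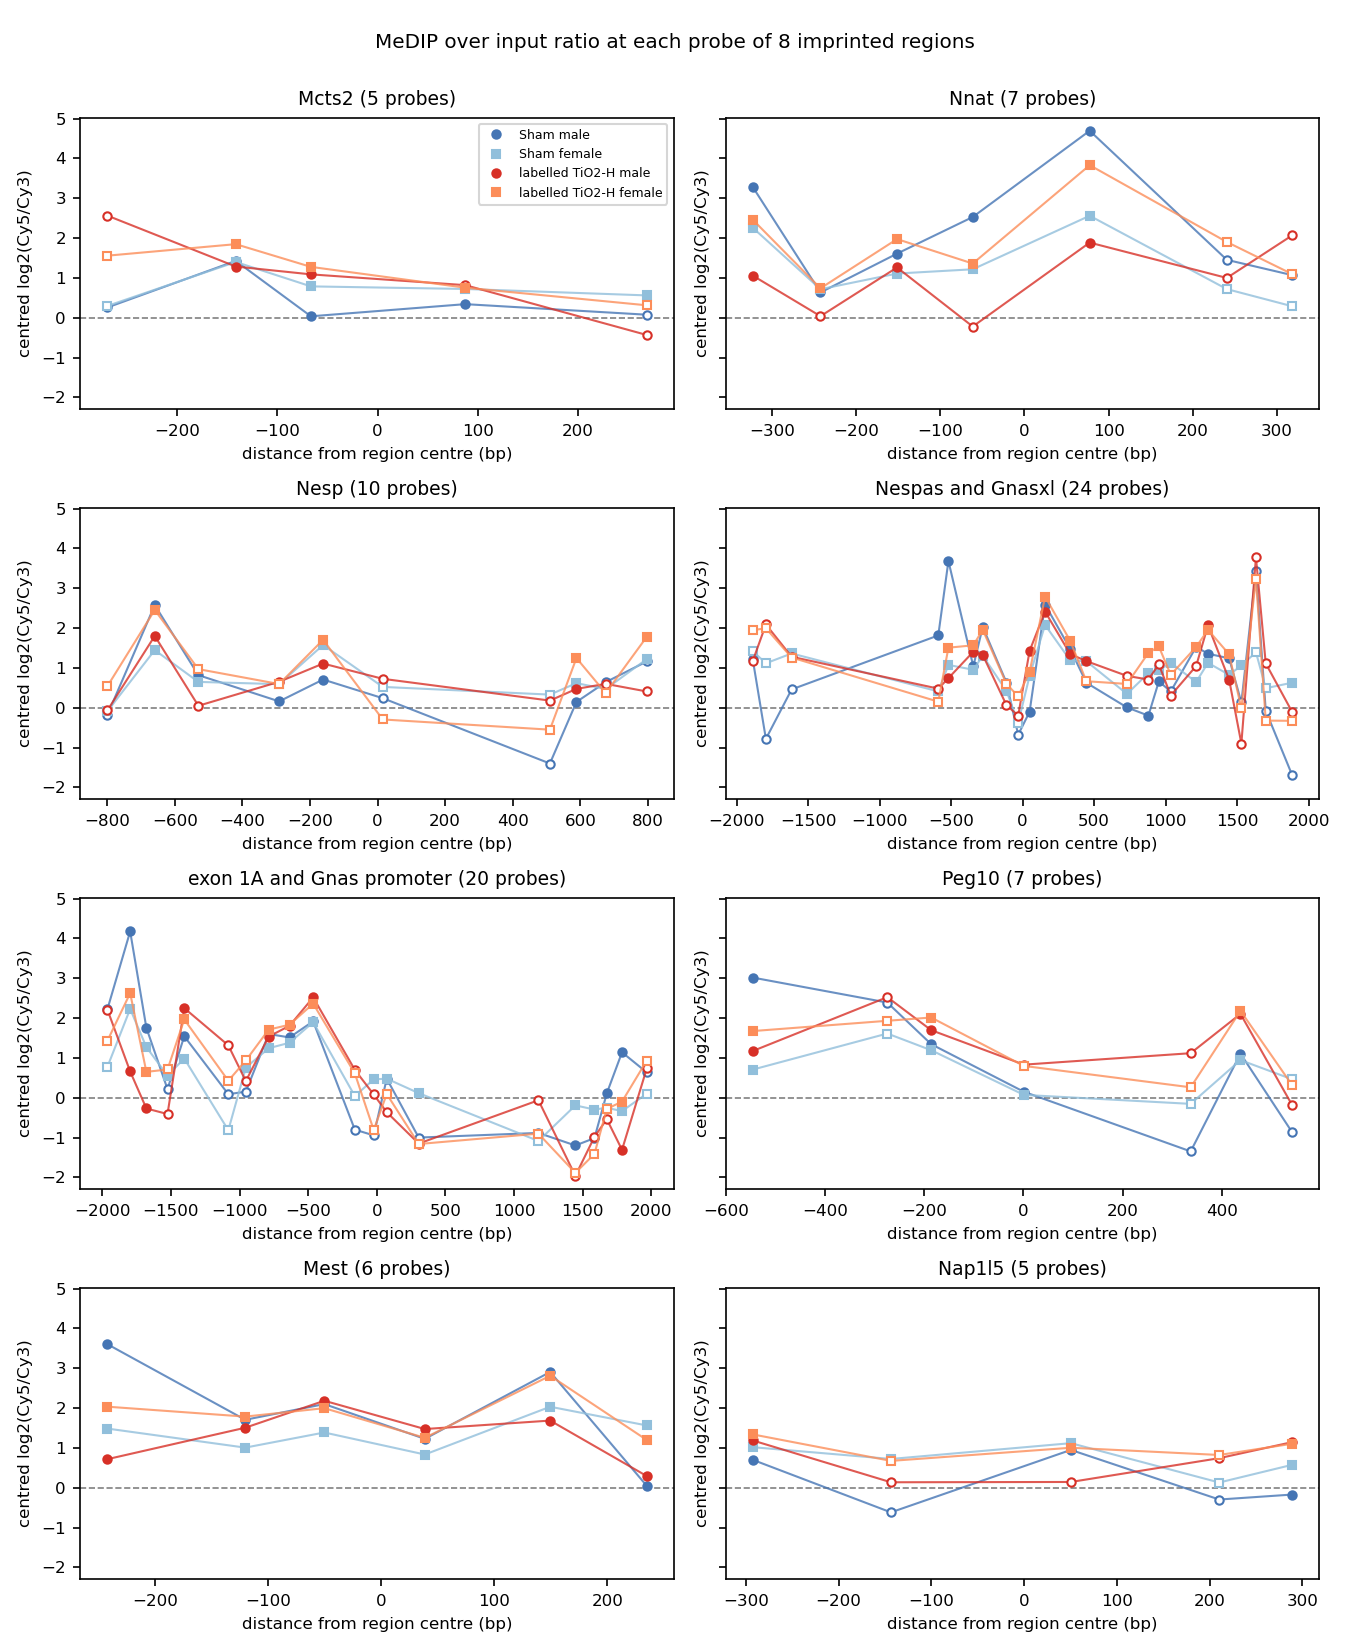
Level of each probe (y axis, log2 ratio of Cy5 over Cy3 centred on the autosomal median) against its distance from the centre of its region (x axis, bp), with 1 line per array and 1 panel per region. Filled symbols have Cy5 well above background and open symbols do not; the dashed line is the autosomal median. All 6 Mest probes are above 0 on all arrays. In the panel of exon 1A and Gnas the median level is lower in the Gnas promoter part, on the right, than in exon 1A. The levels go up and down within both parts, and the rightmost probe is above 0 on all arrays, with dim Cy5.

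The Gnas locus gave 3 regions with 54 probes. It produces several transcripts that splice onto shared exons: Nesp, which encodes the secretory protein NESP55, Gnasxl, which encodes the large G protein subunit XLαs, the untranslated exon 1A transcript, and Gnas, which encodes Gsα, the subunit that couples receptors to adenylyl cyclase. Nespas is an antisense transcript that starts close to Gnasxl and runs back across Nesp. The parts were named from the order and spacing of the RefSeq starts, in which exon 1A follows Nesp after 43429 bp and Gnas follows exon 1A after 2257 bp, and no coordinate was converted. The 10 probes at Nesp (chr2:174110137-174111779) had a median level of 0.44 in Sham male, 0.61 in Sham female, 0.54 in TiO2-H male and 0.78 in TiO2-H female, or percentiles 70.0, 84.1, 76.6 and 80.6. The 24 probes at Nespas and Gnasxl (chr2:174122729-174126550) had medians of 0.65, 1.01, 1.10 and 1.36, with percentiles of 76.8, 91.3, 90.8 and 90.9. The highest probe of the first region, at 174110277, measured 2.58, 1.45, 1.80 and 2.46, and the lowest, at 174111443, -1.40, 0.33, 0.18 and -0.55. In the other region the highest probe, at 174126242, had neither dye well above background on any array, and the lowest, at 174126498, measured -1.68, 0.63, -0.10 and -0.33. By the median, Sham male was the lowest array in both regions.

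Exon 1A and the Gnas promoter differed in level although they are neighbours. The 20 probes of the region (chr2:174152721-174156700) had a median level of 0.35, 0.47, 0.25 and 0.63. A gap of over 500 bp divides it into 14 probes at exon 1A (chr2:174152721-174155044) and 6 at the Gnas promoter (chr2:174155866-174156700). The exon 1A probes had medians of 1.00, 0.77, 0.68 and 0.82, at percentiles 85.4, 87.7, 81.6 and 81.6. The Gnas promoter probes had medians of -0.38, -0.27, -0.76 and -0.59, at percentiles 33.4, 28.1, 14.6 and 23.9. Cy5 was well above background for 7, 11, 6 and 6 of the 14 exon 1A probes. For the 6 Gnas promoter probes it was so for 4, 3, 1 and 1, so their TiO2-H medians rest mostly on dim signals. Exon 1A was therefore higher by 1.38, 1.04, 1.44 and 1.41 on the log2 scale, on all 4 arrays. Each difference compares medians of different probes and so also takes in how well these probes hybridize, which was not tested. The highest probe of the region, at 174152892 in exon 1A, measured 4.18, 2.23, 0.66 and 2.63, and the lowest, at 174156135 in the Gnas promoter, -1.20, -0.19, -1.96 and -1.88. The Gnas promoter had the most CpG of the sequences printed above, and the probes named after it had the lowest median level of the locus. The study's annotation placed 1 of these probes inside a Gnas transcript, and 3 of the exon 1A probes at the promoter of that transcript. No coordinate was converted, so whether any of these probes lay within the printed sequence is not known here.

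By the mean of the 4 percentiles the order was Mest (96.4), Nnat (93.6), Peg10 (90.2), Nespas and Gnasxl (87.4), Mcts2 (82.5), Nesp (77.8), Nap1l5 (74.6), and exon 1A with the Gnas promoter (72.0). Over the arrays the regions spanned between 1.48 percentile points (Mest) and 43.4 (Nap1l5), and the ranges of neighbours in this order overlapped. The lowest value of Mest, 95.8, was above the highest of Peg10, 94.9, and of every region after it. Of 10 other imprinted control regions listed, Snrpn and H19 had no probes, and of the other 8 regions (Peg3, Inpp5f, Kcnq1ot1, Plagl1, Grb10, Zrsr1, Peg13 and Igf2r) 5 lay above the 75th percentile on all 4 arrays. All 9 promoters of germline genes that are methylated in somatic tissue (Mael, Sycp1, Hormad1, Brdt, Sycp3, Ddx4, Mov10l1, Dazl and Tdrd1) lay above it. The median of the region medians was 0.55, 0.72, 1.07 and 1.32 in the 8 regions of chromosomes 2 and 6. It was 0.91, 0.88, 1.00 and 1.36 in the other imprinted regions, and 1.69, 1.71, 1.84 and 2.16 in the germline promoters. The germline promoters, methylated on both copies, thus had the highest median on every array.

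The exposure comparison asked whether these regions differed in methylation between the TiO2-H and Sham groups of one sex label. With 1 array per group no test was possible, and the thresholds of the study's methods were used, a rise being 1.5-fold or more and a fall 0.67-fold or less. A probe was counted as measured if both arrays had Cy3 well above background, at least 1 had Cy5 so, and the software's p-value of the log ratio was below 0.05 on at least 1. Of the 84 probes, 32 were measured in both comparisons and 33 in neither.

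In the male comparison (TiO2-H male by label, over Sham male), 15 of 40 measured probes fell (37.5%) and 9 rose (22.5%). Of 34782 measured autosomal probes, 56.0% fell and 3.14% rose, and 59.2% changed in either direction against 60.0% of the member probes. The median log2 fold was -0.16 over the member probes and -0.68 over the autosomal ones. The member probes that rose were 4 at Nespas and Gnasxl, 2 in exon 1A, and 1 each at Mcts2, Peg10 and Nap1l5. Among probes bright in Cy5 on both arrays, 7 of 32 probes rose (21.9%), against 4.03% of the autosomal probes. Under normexp background correction 0 member probes rose and 0.0489% of the autosomal probes did, and with neither the filter on Cy5 nor that on the p-value of the log ratio the shares were 28.2% and 25.2%.

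In the female comparison (TiO2-H female by label, over Sham female), 15 of 43 measured probes rose (34.9%) and 7 fell (16.3%). Of 41116 autosomal probes, 28.8% rose and 36.3% fell, and 65.1% changed. This direction depended on the scaling. With no centring 2 member probes rose and 13 fell, with a common spread 0 and 22, with quantile normalization 1 and 13, with loess 5 and 8, and with normexp 4 and 10. Autosomal probes also fell more often than they rose under each of these. Of them 51.0% fell with no centring, 48.3% with a common spread, 33.7% with loess and 46.1% with normexp. The member shares were 30.2%, 51.2%, 18.6% and 23.3%. With quantile normalization 14383 of the 41116 autosomal probes fell, a larger share than the 30.2% of members. Members thus fell less often than autosomal probes except with a common spread. Cy5 was dim on the TiO2-H array for 6 of the 7 falls, and these were lost when only probes bright in Cy5 on both arrays were counted. Under that filter 15 of 33 member probes rose (45.5%) and 1 fell (3.03%), against 53.7% and 7.21% of the autosomal probes.

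**Figure D3:**
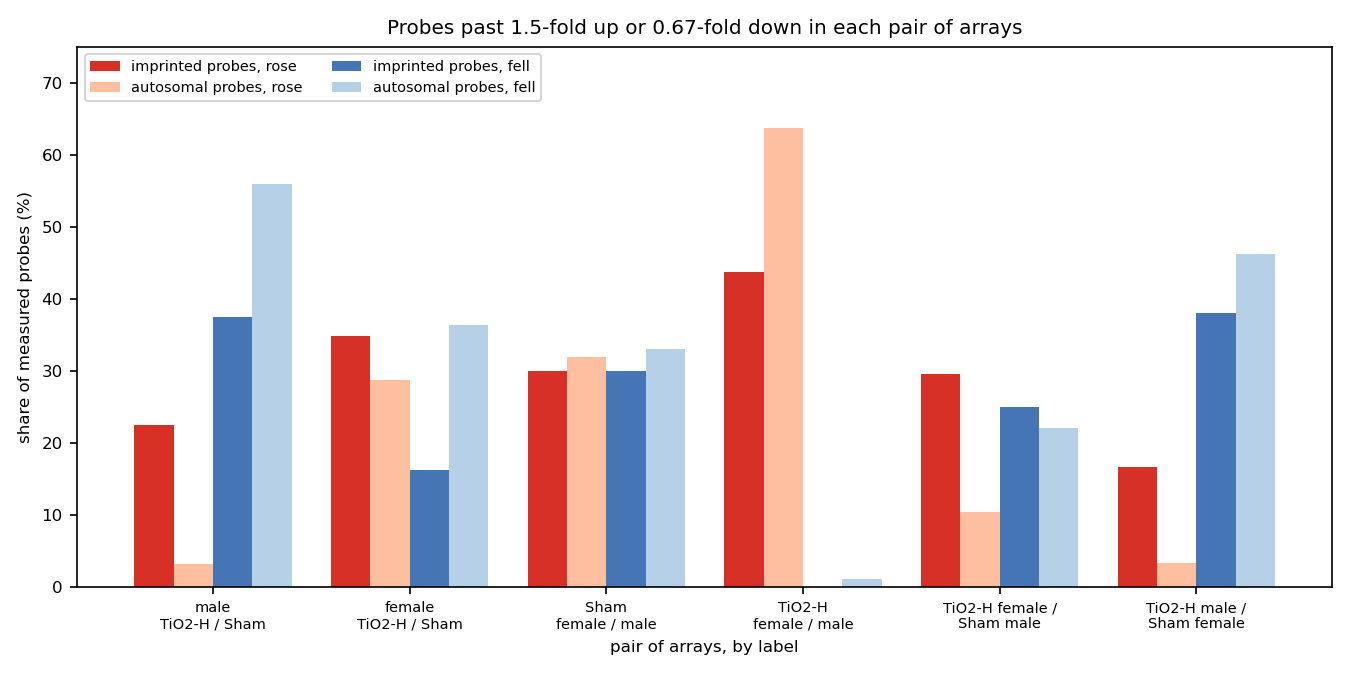
Share of measured probes that rose by 1.5-fold or more or fell to 0.67-fold or less (y axis, %, from 0) in each pair of arrays (x axis, by label), for the probes of the imprinted regions and for all autosomal probes. In the male pair 22.5% of the imprinted and 3.14% of the autosomal probes rose, and between the 2 Sham arrays the imprinted and autosomal shares were 30.0% and 32.0% for rises.

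Differences of this size also separated arrays of the same exposure. Between Sham female and Sham male, 15 of 50 member probes were higher and 15 lower, or 30.0% each, against 32.0% and 33.0% of the autosomal probes. Between the TiO2-H arrays, 14 of 32 were higher under the female label and 0 lower, against 63.7% and 1.02% of the autosomal probes. When the TiO2-H and Sham arrays were paired by X-linked input instead of by label, TiO2-H female by label over Sham male had 13 rises and 11 falls among 44 member probes, with 10.3% and 22.1% of the autosomal probes. TiO2-H male by label over Sham female had 7 rises and 16 falls among 42, with 3.36% and 46.2%. These comparisons share arrays with those above.

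**Figure D4:**
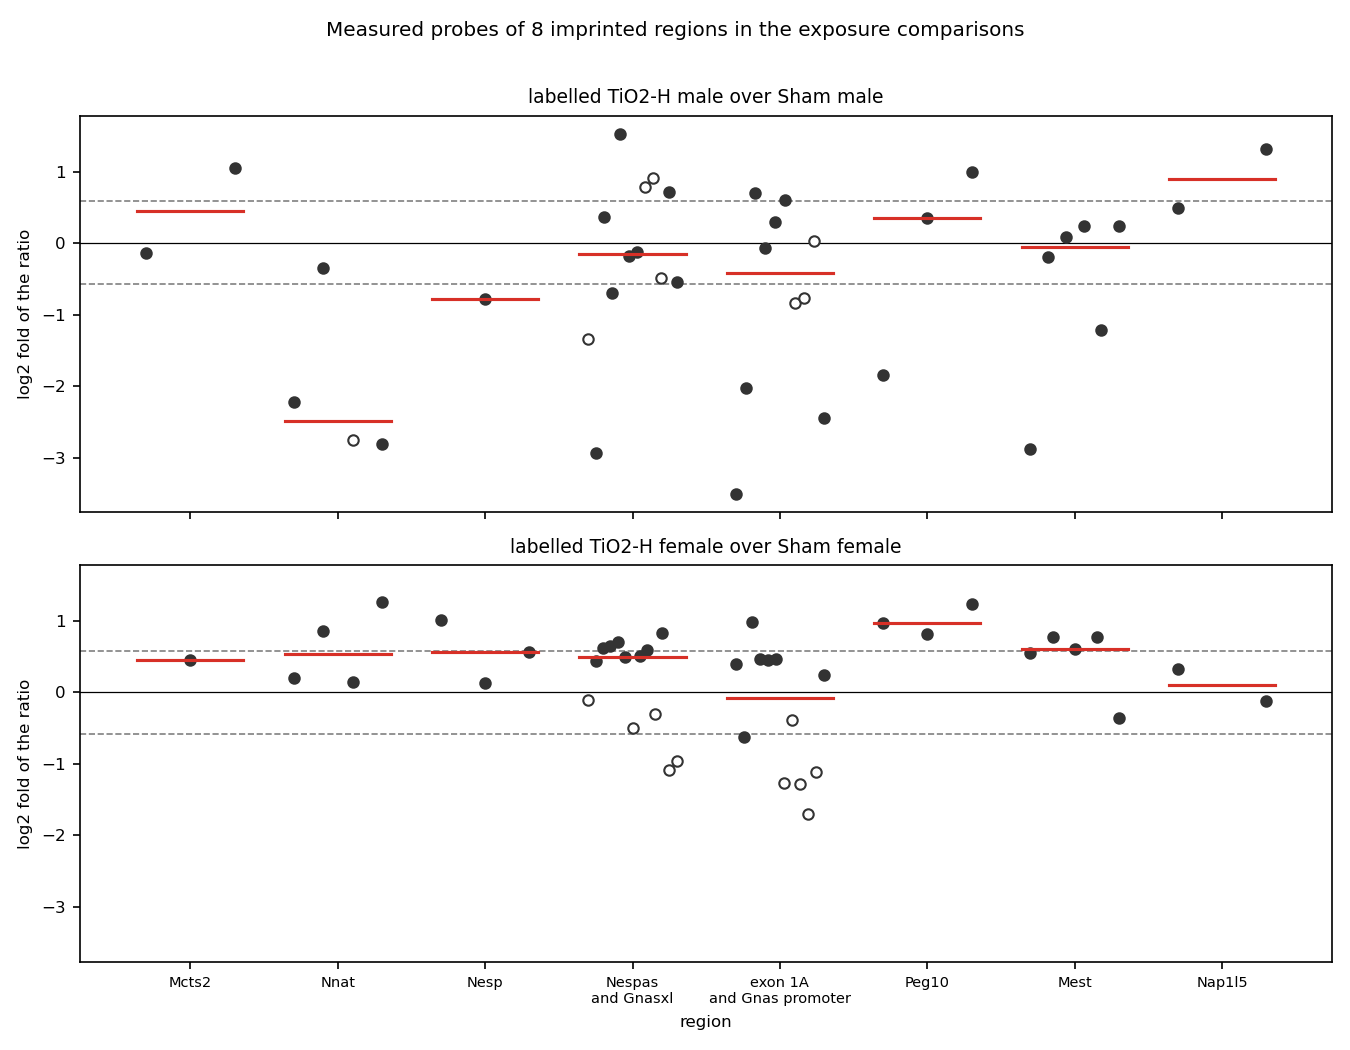
Log2 fold of the ratio for each measured probe (y axis) by region (x axis), in the male comparison above and the female comparison below; red bars are region medians and dashed lines the thresholds of 1.5-fold and 0.67-fold. Open circles mark probes with dim Cy5 on an array of the pair. Nnat had 3 falls and no rise in the male panel, and Peg10 had 3 rises of 3 in the female panel. In the male pair 56.0% of the measured autosomal probes fell. In the female pair 53.7% of the autosomal probes bright in Cy5 on both arrays rose.

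Nnat had the lowest median fold of the 8 regions in the male comparison. Over the measured autosomal probes of this pair 56.0% fell, with a median log2 fold of -0.68. Of the 4 measured Nnat probes 3 fell, and the median log2 fold was -2.49, with an SD of 1.15 over the probes. Of these falls, the probe at 157385700 went from 3.28 in Sham male to 1.06 in TiO2-H male, that at 157385964 from 2.53 to -0.22, and that at 157386103 from 4.69 to 1.89. Among measured autosomal probes above 3 in Sham male, as 2 of these 3 were, 91.9% fell. Cy5 of the probe at 157385964 was dim in TiO2-H male, and with that probe at its bound the region was at least 5.29-fold lower by the median of the probes. The median was below 0 under all 7 alternatives that kept the labelled pair of arrays, between -0.84 and -2.41. Sham female lay at 2.26, 1.22 and 2.56 for these probes and TiO2-H female at 2.46, 1.36 and 3.83, so that the fall was between Sham male, the highest array for each, and TiO2-H male, the lowest. Against Sham female the TiO2-H female median was 0.53 higher on the log2 scale, with 2 rises among 4 probes, and it was below 0 with a common spread, loess, normexp and quantile normalization. Paired by X-linked input, the Nnat median was -0.84 for TiO2-H female over Sham male and -0.94 for TiO2-H male over Sham female, with 3 falls among 4 probes in each, so that the opposite signs of the labelled pairs were not seen. Between the Sham arrays themselves the Nnat median was lower by 1.17 in Sham female.

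Peg10 was the only region with more than 1 measured probe in which all of them passed the threshold in an exposure comparison by label. In the female comparison 3 of 3 rose, with log2 folds of 0.82 to 1.24 and a median of 0.97. All 3 were bright in Cy5 on both arrays. Of such autosomal probes 53.7% rose in this pair, with a median log2 fold of 0.64. The probe at 4698292 measured 1.11 in Sham male, 0.95 in Sham female, 2.11 in TiO2-H male and 2.18 in TiO2-H female, with both TiO2-H arrays above both Sham arrays. Its adjusted p was 0.91 in the limma fit over both sex labels described below. The share of autosomal probes split in this way is not given here. The probe at 4697665 measured 1.35, 1.19, 1.70 and 2.02, again with both TiO2-H arrays above both Sham arrays. The probe at 4697308 measured 3.02, 0.71, 1.17 and 1.67, and here Sham male was the highest. In the male comparison the median was 0.35, with 1 rise and 1 fall among the 3. The Peg10 median was above 0 under all 7 alternatives of this kind in both comparisons, between 0.41 and 0.97 in the female and between 0.11 and 0.68 in the male one. Paired by X-linked input it was 0.67 for TiO2-H female over Sham male and 0.83 for TiO2-H male over Sham female.

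The retrogenes had few measured probes. Mcts2 had a median log2 fold of 0.46 over 2 probes in the male and 0.45 for 1 probe in the female comparison, and Nap1l5 of 0.90 and 0.10 over 2 probes each. In the male comparison both were above 0 under the 7 alternatives, from 0.04 to 0.68 for Mcts2 and from 0.20 to 1.12 for Nap1l5. Paired by X-linked input, they were 0.83 and 0.96 for TiO2-H female over Sham male, but -0.11 and -0.40 for TiO2-H male over Sham female. At Nap1l5 the probe at 58857195 rose from -0.17 in Sham male to 1.15 in TiO2-H male, and measured 0.58 in Sham female and 1.10 in TiO2-H female. Mest had a median of -0.06 over 6 probes with 2 falls in the male comparison, and of 0.61 over 5 probes with 3 rises in the female one, where it was below 0 with a common spread, quantile normalization, loess and normexp.

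At the Gnas locus the single measured Nesp probe of the male comparison, at 174110277, fell by 0.77 on the log2 scale, from 2.58 to 1.80, and in the female comparison it went from 1.45 to 2.46. Nespas and Gnasxl had medians of -0.15 over 12 probes (4 rises, 3 falls) and of 0.49 over 13 (5 rises, 2 falls). The SD over the probes, 1.19 and 0.66, was larger than the median in each. The male medians of Mest and of Nespas with Gnasxl turned above 0 under 4 and 5 of the 7 alternatives, and the female medians of Mcts2, Nap1l5, Nesp and Nespas with Gnasxl turned below 0 under 5, 5, 3 and 4. Exon 1A with the Gnas promoter had 2 rises and 5 falls among 10 probes in the male comparison and 1 rise and 5 falls among 12 in the female one. Cy5 was dim on 1 of the arrays for 3 and 5 of these probes, and with them at their bounds the medians no longer lay below 0, so no fold is given. The probe at 174153286 in exon 1A rose in both comparisons, with 1.54 in Sham male, 0.99 in Sham female, 2.25 in TiO2-H male and 1.97 in TiO2-H female. Over all regions 32 probes were measured in both comparisons. Of these 3 rose in both, 2 fell in both, and 5 fell in the male and rose in the female comparison. The autosomal shares of these combinations are not given here. Taken singly, 56.0% of the autosomal probes fell in the male and 28.8% rose in the female comparison.

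Of the falls in the male comparison, 6 were at probes whose level was above 3 in Sham male. They were 2 at Nnat and 1 each at Gnasxl, exon 1A, Peg10 and Mest, and they were picked out after their values had been seen. The Mest probe at 30688012 measured 3.60 in Sham male, 1.49 in Sham female, 0.72 in TiO2-H male and 2.04 in TiO2-H female, and the Gnasxl probe at 174124098 measured 3.68, 1.08, 0.74 and 1.51. Sham male was the highest array for all 6. Of 3634 measured autosomal probes above this level in Sham male 91.9% fell as well, a share close to that of the members.

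A fit of the TiO2-H effect over both sex labels (limma, with Benjamini-Hochberg adjustment over 39861 autosomal probes) called none of the 52 member probes it could test. Over all probes it called 37 (0.0928%), all lower in TiO2-H. The lowest adjusted p of a member in limma was 0.765, for the exon 1A probe at 174153010, with a log2 fold of -1.32 and an SE of 0.55. At an unadjusted p below 0.05 there were 4 members, 1 higher and 3 lower, against 5.45% of all probes tested. The median log2 fold was 0.19 over the members and -0.13 over all probes. Leaving out Sham female makes Sham male the only Sham array and takes the spread from the TiO2-H arrays alone, so only effect sizes are given. The log2 fold was then -2.53 for the exon 1A probe at 174152892 and -2.56 for the Gnasxl probe at 174124098. Both were among the 6 probes that were above 3 in Sham male. The median log2 fold without Sham female was 0.01 over the members and -0.31 over all probes. The arrays of one exposure differed in sex label, slide and X-linked input, and the p-values measure only the spread between these pools.

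The profile over the member probes was alike between some pairs of arrays more than others, as a description over 78 probes that share probe sequence and base composition. Pearson's r was 0.82 between Sham female and TiO2-H female, 0.78 between the TiO2-H arrays, 0.77 between Sham male and TiO2-H female, 0.72 between the Sham arrays, 0.59 between Sham female and TiO2-H male and 0.46 between Sham male and TiO2-H male. Spearman's rho was 0.82, 0.77, 0.76, 0.70, 0.59 and 0.50 in the same order. Over 80488 autosomal probes r was 0.79, 0.87, 0.91, 0.79, 0.69 and 0.81 in that order. The pair labelled male was thus the least alike over the member probes but not over the autosomal ones, and the arrays of one exposure were no more alike than some pairs across exposures.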

How the data were processed

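Per the file headers, the authors' arrays were scanned and quantified with Agilent Feature Extraction 10.7.3.1 into deposited Cy3 and Cy5 intensities, already background-subtracted, spatially detrended and scaled by a linear dye factor, with a log10 ratio and its p-value for each spot. The deposited series table held the same log10 ratio, within 5e-10. Each array held 94687 spots, of which 88737 were probes. From these files log2 of Cy5 over Cy3 was computed and centred on the autosomal median of each array, without loess or quantile normalization. Control spots were left out. Regions were runs of probes with gaps of up to 1000 bp, ranked among autosomal regions of at least 3 probes. Probes are described by mm9 position as given in the files. Named probes were the highest and lowest of each region by the mean of the arrays, and any probe called by limma, of which the fit over all 4 arrays gave none. Every other probe named was chosen after its values were seen. The members and lists were chosen with earlier results of these data known. Where Cy5 was dim on an array, "at least" folds took the higher of the probe's own Cy5 signal and the lowest Cy5 signal marked well above background on that array. The number of arrays limits the precision, and no replicate error exists within a group. The fit used limma 3.58.1 in R 4.3.3 (2 arrays against 2), and the other steps pandas 2.3.3 and numpy 2.4.6 in Python 3.11.15. The counting and the fit were tested on simulated data. For the fit, the simulated noise was independent for each probe and array. It had no shift or difference in spread between arrays and no dim signals, so the effect of these was not tested.

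No GRCm38 coordinate was converted to mm9. Alternatives were no centring, a common spread, quantile normalization, loess, normexp (offset 50), filters on dim probes, a 2-fold threshold, a gap of 500 bp, means, and pairing by X-linked input. A filter on Cy3 over all 4 arrays was added after seeing the data.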

Additional observations from a re-analysis of the deposited data

Results flagged for a closer look

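At Nnat, Nesp, Mest, and Nespas with Gnasxl the median log2 fold had opposite signs under the sex labels. The Nnat median was -2.49 under the male label and 0.53 under the female one, and that of Nesp -0.77 and 0.56. That of Mest was -0.058 and 0.61, and that of Nespas with Gnasxl -0.15 and 0.49. With 1 array per group these differences were not tested, and for Nesp the male value is that of 1 probe. The X-linked input of the TiO2-H arrays went against their sex labels. Paired by that input, TiO2-H female over Sham male and TiO2-H male over Sham female had medians of -0.84 and -0.94 at Nnat, 0.62 and -0.47 at Nesp, and -0.03 and 0.08 at Mest. At Nespas with Gnasxl they were 0.20 and 0.02. The signs were then alike at Nnat and at Nespas with Gnasxl. At Nesp and Mest they were opposite and turned about, but the second Nesp value became 0.35 with its dim probe at its bound.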

How the results depend on the processing

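The count of changed member probes was 24 in the male comparison and 12 with normexp, 44 with no filter on Cy5 or on the p-value of the log ratio, and 14 at a 2-fold threshold. In the female comparison it was 22, and 14 with quantile normalization, 13 with loess, 14 with normexp, 36 with no filter and 8 at the 2-fold threshold. The cause was not tested, except that no filter admits more probes and a higher threshold fewer. The number of regions above the 75th percentile on all 4 arrays was 4, and 2 with normexp, 6 with loess and 5 with the 500 bp gap, which makes 10 regions. The Nesp median log2 fold of the male comparison was -0.77, and reversed to 0.14 with loess, 0.22 with no filter and 0.62 when paired by X-linked input. The Mest median of the female comparison was 0.61, and reversed to -0.54 with a common spread, -0.10 with quantile normalization, -0.30 with loess and -0.29 with normexp. Leaving out each array in turn leaves 1 array in a group, so no calls are given for those fits. Their median log2 fold over the members ran from -0.036 without TiO2-H female to 0.34 without TiO2-H male. Over all probes it was -0.42 and 0.16 in these fits. The other limma alternatives called 0 members. With the sex label as a block, which pairs the arrays by label, 1 of 52 members was at an unadjusted limma p below 0.05. With X-linked input as a block 11 of 52 were, the most of any alternative. Of all probes tested 3.66% were below 0.05 with the first block and 9.78% with the second. Of the percentile values under alternatives 197 stayed within 10 points and 27 moved further, 18 of them with normexp, 7 with loess and 2 with the filter on Cy3. A replicate block was not possible because each group had a single array. Dim Cy5 limits 8 of the 40 male and 10 of the 43 female folds.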
